A study of Homo sapiens with 6 samples.

Results

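The 10 genes described here encode the chemokines CXCL1, CXCL2, CXCL3, CXCL5, CXCL8, CXCL10, CXCL16, CCL2, CCL5 and CCL20. They were taken by gene name from the 58825 genes of an RNA-seq experiment, as chemokines that tumour cells can secrete, and all 10 were found. The cells were NCI-H460, an established line grown from a human large cell lung carcinoma and labelled lung adenocarcinoma by the submitters. The control group (NC-shRNA, n = 3 libraries) was infected with lentivirus carrying a hairpin that the labels describe as directed against GFP. The paper calls its control hairpin a control shRNA and names no target for it. The knockdown group (PRMT5-shRNA, n = 3) carried a hairpin against PRMT5, the arginine methyltransferase under study. The paper describes both groups as stable. It gives puromycin selection for the knockdown cells and does not say how the control cells were selected. The groups are called control and knockdown libraries below. The paper tested 3 PRMT5 hairpins for knockdown by Western blot and qPCR and reports the third site as the most effective. Which of them was sequenced is not given in the sources used here. The transcripts could therefore not be compared between hairpins. The comparison asks which transcripts differed once PRMT5 had been reduced.

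Chemokines are small secreted proteins that direct the migration of leukocytes through receptors coupled to G proteins. CXCL1, CXCL2, CXCL3, CXCL5 and CXCL8 carry the amino acids ELR ahead of their first cysteines, act on CXCR2 (CXCL8 also on CXCR1) and attract neutrophils. CXCL10 is an interferon-induced ligand of CXCR3 on activated T cells, and CXCL16 is made as a membrane-bound protein that ADAM proteases shed and CXCR6 binds. CCL2 attracts monocytes through CCR2, CCL5 attracts T cells and monocytes through receptors that include CCR1 and CCR3, and CCL20 binds CCR6. Many of these genes are transcribed in epithelial tumour cells through NF-κB, which IL-1 and TNF activate.

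The ELR genes lie together on chromosome 4 of GRCh38, and the stretch just before their start sites is shown here because it holds the element through which NF-κB is known to act on them. The 120 bases before the RefSeq start site (GRCh38.p14) of each of these 5 genes are printed 5′ to 3′ on the gene's own strand, with GGAATTTCC, the longest run of bases common to all 5, in capitals.
CXCL1: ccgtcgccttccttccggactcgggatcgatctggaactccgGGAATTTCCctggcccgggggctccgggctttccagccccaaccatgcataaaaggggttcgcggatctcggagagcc
CXCL2: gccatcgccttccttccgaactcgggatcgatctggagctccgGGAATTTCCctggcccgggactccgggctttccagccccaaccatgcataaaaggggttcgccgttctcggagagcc
CXCL3: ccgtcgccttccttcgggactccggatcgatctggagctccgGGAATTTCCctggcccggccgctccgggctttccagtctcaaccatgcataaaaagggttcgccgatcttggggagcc
CXCL5: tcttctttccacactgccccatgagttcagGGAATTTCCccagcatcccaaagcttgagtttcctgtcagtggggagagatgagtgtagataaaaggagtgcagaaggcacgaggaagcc
CXCL8: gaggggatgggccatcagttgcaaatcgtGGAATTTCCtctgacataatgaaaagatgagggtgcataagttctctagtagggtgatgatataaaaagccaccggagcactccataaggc

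These windows are chr4:73869273-73869392 on the plus strand for CXCL1, chr4:74099196-74099315 on the minus strand for CXCL2, chr4:74038690-74038809 on the minus strand for CXCL3, chr4:73998678-73998797 on the minus strand for CXCL5 and chr4:73740449-73740568 on the plus strand for CXCL8. The gene bounds printed further below are those of GENCODE, which begin farther upstream than RefSeq for CXCL2, CXCL3, CXCL5 and CXCL8. The windows of these genes therefore lie partly within those bounds. In a global alignment, 113 of the 120 bases were identical between CXCL1 and CXCL2, 109 between CXCL1 and CXCL3 and 108 between CXCL2 and CXCL3. CXCL5 shared 74 with CXCL1, and CXCL8 shared 65. Counted from the start site, with the base just before it as -1, GGAATTTCC began at -78 in CXCL1 and CXCL3, -77 in CXCL2, -90 in CXCL5 and -91 in CXCL8. The first 3 genes thus have nearly the same letters before their start sites, while the longest run shared with CXCL1 was 11 bases in CXCL5 and 9 in CXCL8, and each of these runs holds the capitals.

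RefSeq promoters, from 250 bases before to 50 after the start site, were at hand for 7 of the 10 genes, those of CXCL16, CCL2 and CCL5 not being among them. On either strand, GGAATTTCC was found in 6 of the 7, the 5 ELR genes from which it was read and CXCL10, and in 0.461% of all 35116 promoters. The longer GGGAATTTCCC, the longest run common to CXCL1, CXCL2, CXCL3 and CXCL5, holds the shorter one and was found in 0.0769% of all promoters. The core of the interferon-stimulated response element, GAAA followed after any 2 bases by another GAAA, was found in CXCL10 alone of the 7 and in 3.57% of all promoters. TGANTCA, the AP-1 type of element, was found in CXCL8 alone and in 7.71% of all promoters, and TATAAA in CXCL8 and CCL20 and in 11.5%. Matches to letters describe these windows and do not show binding.

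The total estimated count ranged from 53531257 to 70518401 per library. Low counts gathered at multiples of 4 (1214 to 1319 genes had exactly 4 counts per library, against 283 to 308 with 5), so a count is not read as 1 sequenced fragment. PRMT5 had 9604, 8812 and 7966 counts in the control and 2502, 3188 and 2203 in the knockdown libraries, 32.6% of control, with PRMT5-AS1 on the opposite strand (edgeR adjusted p = 0.0063). Of 13 lung epithelial markers, KRT8 and KRT18 were high (KRT18 at 151 ± 12.5 FPKM in control, SD, n = 3). The sum of the list was 356 to 375 FPKM in control against 329 to 340 in knockdown libraries. EPCAM and CDH1, also on the list, were low, at 0.50 and 0.137 FPKM on average in control. The adenocarcinoma markers NKX2-1 and NAPSA stayed at 0 to 16 counts in every library, and SFTPA1 and SFTPA2 were at 0. SFTPB had 0, 0 and 12 counts in control and 0 in knockdown libraries, and SFTPC had 8, 4 and 4 against 9, 0 and 49. KRT7, KRT19 and MUC1, the others on the list, were expressed, at 51.6, 36.5 and 13.1 FPKM on average in control. Of the 8 markers tested, 1 lay on the higher side, against 10385 of all 20295 tested genes. KRT8 was lower in every knockdown library (log2 fold change -0.23, edgeR adjusted p = 0.25). Nothing in the labels says how far the replicate cultures were kept apart, so the p-values measure the spread between these libraries.

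At the level of FPKM (fragments per kilobase of transcript, scaled to the depth of the library, so that genes can be compared), NCI-H460 cells carried mainly the neutrophil-attracting group. CXCL1 had the highest level, with 101, 98.6 and 98.4 FPKM in control replicates 1, 2 and 3 and 113, 122 and 125 in the knockdown libraries. Averaged over all libraries, it was higher than 99.2% of the 32052 genes with any FPKM. CXCL5 followed at 57.9, 62.8 and 60.1 FPKM in control and 58.5, 59.5 and 58.9 in knockdown cells. CXCL1 and CXCL5 were separated in level in both groups, and no library of one reached the other.

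CXCL8, which encodes interleukin-8, came next with 22.1, 27.8 and 30.9 FPKM in control and 30.9, 33.5 and 43.1 in knockdown cells. CXCL2 had 15.6, 17.1 and 17.8 FPKM in control and 17.9, 18.3 and 21.0 in knockdown cells. CCL5 had 10.8, 11.8 and 11.5 FPKM in control and 11.4, 7.0 and 6.76 in knockdown cells. Replicate 1 of knockdown was thus at the control level of CCL5, and the other knockdown libraries were below it.

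CCL20 and CXCL3 were close to each other, at 4.21 ± 0.839 and 3.74 ± 0.745 FPKM in control (SD, n = 3 each), where their libraries overlapped. In knockdown cells they were at 4.26 ± 0.239 and 3.35 ± 0.272 FPKM and did not overlap. CXCL16 was at 2.20 ± 0.478 FPKM in control and 1.79 ± 0.541 in knockdown cells. CXCL10 was at 0.613 ± 0.146 FPKM in control and 0.453 ± 0.0961 in knockdown cells. CCL2 was the lowest, at 0.0567 ± 0.0321 FPKM in control and 0.190 ± 0.0854 in knockdown cells. The order CXCL1, CXCL5, CXCL8, CXCL2, CCL5, CCL20, CXCL3, CXCL16, CXCL10, CCL2 was the same in both groups, and CCL20 and CXCL3 in control were the only neighbours whose libraries overlapped.

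**Figure D1:**
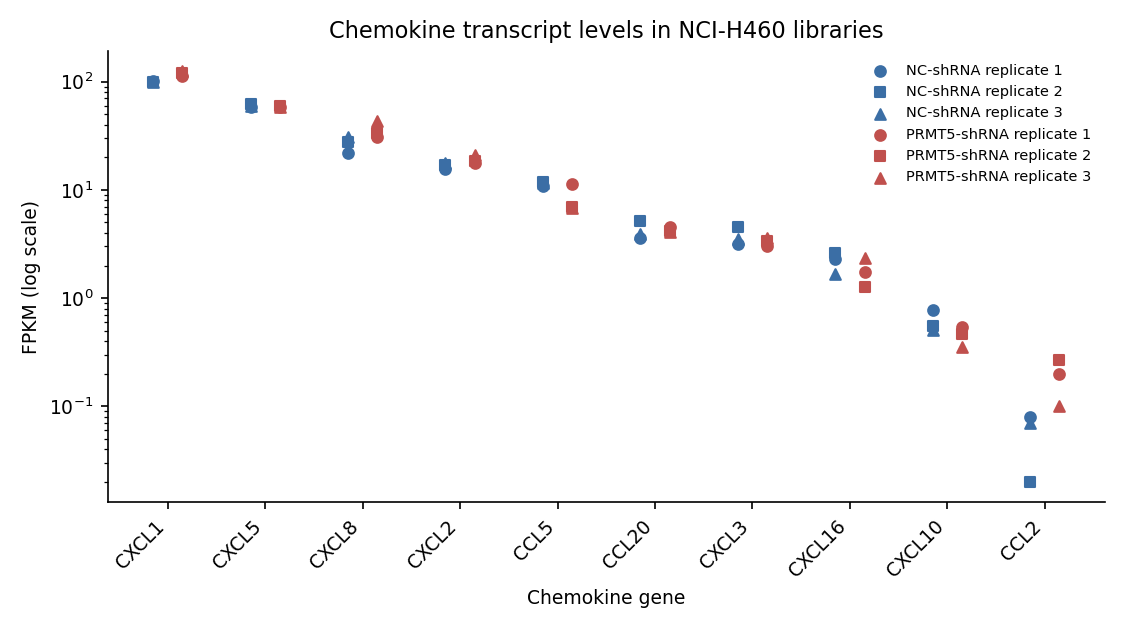
FPKM of each chemokine gene (log scale) in the 3 NC-shRNA (blue) and 3 PRMT5-shRNA (red) libraries, 1 marker per library, with the shape giving the replicate number. The levels span from about 100 FPKM for CXCL1 to under 1 for CXCL10 and CCL2, and of the neighbouring genes CCL20 and CXCL3 alone overlap, in the NC-shRNA libraries.

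Summed over the 5 ELR genes, the level was 199, 211 and 211 FPKM in the control libraries and 224, 236 and 252 in the knockdown libraries, between 91.3% and 94.9% of the FPKM of all 10 chemokines. This sum was higher in every knockdown library, mainly through CXCL1 and CXCL8. Summed over TMM-scaled counts (CPM), it was 427, 450 and 439 against 447, 474 and 500, and knockdown replicate 1 lay below control replicate 2. CXCL5, the other gene with a high level, did not share that direction. The ratio of CXCL1 to CXCL5 in FPKM was 1.74, 1.57 and 1.64 in the control and 1.94, 2.04 and 2.12 in the knockdown libraries, a pair picked after its values were seen.

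Between the groups, none of the 10 chemokines passed the threshold of 0.05 for the adjusted p of edgeR (quasi-likelihood test). Of all 20295 tested genes, 14 or 0.0690% did so, 0.0493% higher and 0.0197% lower. The count was also 0 with DESeq2, the likelihood ratio test and limma on log2 FPKM, where CCL2 had no adjusted p in DESeq2 and was not among the genes tested by limma after a filter on FPKM. At an unadjusted p under 0.05 there were 3, CXCL1 and CCL2 on the higher side and CCL5 on the lower, against 12.8% of all genes (6.54% higher and 6.29% lower). With a fold change over 1.5 added, CCL2 was left, against 3.82% of all genes (2.53% higher and 1.29% lower). The median log2 fold change of the 10 was -0.07, and that of all tested genes 0.01. Nothing particular to the set is read from counts this small. As in any bulk RNA, fewer cells that make a chemokine and less of its RNA per cell cannot be told apart.

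CXCL1 (ENSG00000163739, chromosome 4, 73869393 to 73871242, plus strand) attracts neutrophils through CXCR2. It had 10702, 10557 and 9257 counts in control and 9180, 12720 and 10593 in knockdown libraries. Scaled by edgeR to CPM (counts relative to library size, here the size after TMM), this was 154 ± 5.32 against 178 ± 8.63 (SD, n = 3 each), and every knockdown library was above every control library. The log2 fold change was 0.21 with a standard error of 0.0607 (edgeR adjusted p = 0.26, unadjusted p = 0.0099). In linear terms knockdown cells had 116% of the control level, with a 95% confidence interval of 105% to 128%. The exact two-sided permutation test gave p = 0.10, the smallest that 3 libraries against 3 allow.

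CXCL8 (ENSG00000169429, chromosome 4, 73740506 to 73743716, plus strand) had 4063, 5149 and 5021 counts in control and 4315, 6048 and 6317 in knockdown libraries. In CPM these were 60.5, 74.3 and 80.8 against 79.1, 86.5 and 110, so that replicate 1 of knockdown lay just below replicate 3 of control and the groups overlapped. The log2 fold change was 0.35 with a standard error of 0.152 (edgeR adjusted p = 0.40, unadjusted p = 0.054). Knockdown cells had 128% of the control level, with a 95% confidence interval of 99.4% to 164%. The fold change was 0.20 without knockdown replicate 3, the library with the highest value, and 0.24 without control replicate 1, the one with the lowest.

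CXCL2 (chromosome 4, 74097035 to 74099293, minus strand), a close paralog of CXCL1, had 1790, 1975 and 1810 counts against 1564, 2066 and 1925. Its log2 fold change was 0.12 (edgeR adjusted p = 0.62), with a 95% confidence interval of 93.7% to 126% of control. Without knockdown replicate 3 it was 0.050. The libraries overlapped in CPM and did not overlap in FPKM, where the knockdown libraries were higher. CXCL3 (chromosome 4, 74036589 to 74038807, minus strand), the other member of this trio, had 570, 840 and 568 counts against 426, 606 and 525. Its log2 fold change was -0.22 (edgeR adjusted p = 0.63), with an interval of 65.7% to 113% of control, and its libraries overlapped on every scale. It was -0.048 without control replicate 2, the library with the highest value. Of the 50-base stretches in annotated transcripts, 4.81% of those of CXCL1, 12.5% of CXCL2 and 6.01% of CXCL3 also occur in another of the 3 genes. The paper's methods give a read length of 50 bases, and at that length some reads may have been divided among these genes.

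CXCL5 (chromosome 4, 73995642 to 73998779, minus strand), which encodes another CXCR2 ligand, had 11551, 12641 and 10624 counts in control and 8898, 11699 and 9378 in knockdown libraries. It was at 175 ± 6.27 CPM against 164 ± 2.44 (SD, n = 3 each), or -0.09 on the log2 scale (edgeR adjusted p = 0.52). Its 95% confidence interval, 86.0% to 102% of control, was the narrowest of the 10. The knockdown libraries were all below the control libraries in CPM, but the groups overlapped in FPKM and in CPM of the plain total.

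**Figure D2:**
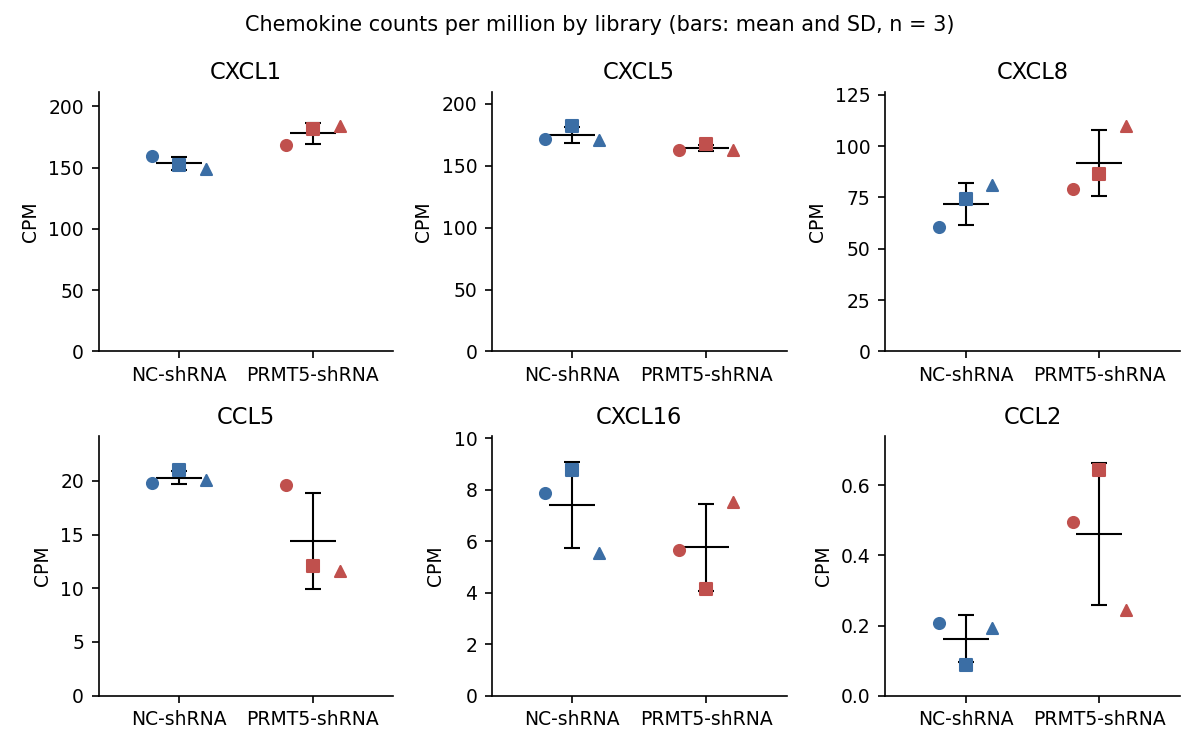
TMM-scaled CPM of CXCL1, CXCL5, CXCL8, CCL5, CXCL16 and CCL2 in each library (circle, square and triangle for replicates 1, 2 and 3), with the mean and SD of 3 libraries. CXCL1 and CCL2 are higher in every PRMT5-shRNA library, CXCL8 and CXCL16 overlap, and in CCL5 PRMT5-shRNA replicate 1 sits at the NC-shRNA level.

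CXCL10 (ENSG00000169245, chromosome 4, 76021117 to 76023497, minus strand), the interferon-induced CXCR3 ligand, had 75, 54 and 44 counts in control and 40, 45 and 27 in knockdown libraries. Its log2 fold change was -0.50 with a standard error of 0.331 (adjusted p in edgeR = 0.57). Without control replicate 1, the library with the most counts, it was -0.27. The groups overlapped, and the 95% confidence interval ran from 41.1% to 122% of control. The gene lies opposite ART3. CXCL11, a CXCR3 ligand of the same family, had 16, 62 and 43 counts against 0, 12 and 12, or -2.23 on the log2 scale (edgeR adjusted p = 0.41), and CXCL9 had 0 counts in every library. Both CXCR3 ligands with counts were thus low, with values that did not pass the test.

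CXCL16 (chromosome 17, 4733526 to 4739922, minus strand, opposite MED11), the membrane-bound chemokine, had 529, 608 and 344 counts in control and 309, 290 and 432 in knockdown libraries. In CPM these were 7.88, 8.77 and 5.54 against 5.66, 4.15 and 7.51, so that control replicate 3 lay among the knockdown values and knockdown replicates 1 and 3 among those of the control. The log2 fold change was -0.36 (edgeR adjusted p = 0.61), with a 95% confidence interval of 50.7% to 120% of control. It was -0.22 without control replicate 2, -0.17 without knockdown replicate 2 and -0.60 without knockdown replicate 3. The proteases that shed CXCL16 were expressed in both groups. ADAM10 was at 4.71 ± 0.465 FPKM in control and 4.90 ± 0.860 in knockdown cells (edgeR adjusted p = 0.997), and ADAM17 at 5.39 ± 0.445 and 5.86 ± 0.483 (edgeR adjusted p = 0.80; SD, n = 3 each).

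CCL5 (ENSG00000271503, chromosome 17, 35871491 to 35880793, minus strand, opposite AC015849.1), the T cell attractant also known as RANTES, had 1329, 1456 and 1250 counts in control and 1069, 847 and 665 in knockdown libraries. In CPM these were 19.8, 21.0 and 20.1 against 19.6, 12.1 and 11.6. The control libraries were tightly grouped, while knockdown replicate 1 stood at their lower edge and the other knockdown libraries well below. The log2 fold change was -0.49 with a standard error of 0.207 (edgeR adjusted p = 0.39, unadjusted p = 0.049), with a 95% confidence interval of 50.5% to 99.7% of control. Without knockdown replicate 1 it was -0.78 (edgeR adjusted p = 0.18, unadjusted p = 3.8e-04). It was -0.38 without knockdown replicate 2 and -0.36 without knockdown replicate 3 (edgeR unadjusted p = 0.14 for each). With a control library left out, the unadjusted p of edgeR was 0.084, 0.105 and 0.090 for control replicates 1, 2 and 3. On the plain total and on FPKM the groups overlapped. Of its 50-base stretches, 13.9% also occur in transcripts of other genes.

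CCL2 (ENSG00000108691, chromosome 17, 34255218 to 34257203, plus strand), the monocyte attractant also known as MCP-1, was measured on 14, 6 and 12 counts in control and 27, 45 and 14 in knockdown libraries. In CPM this was 0.163 ± 0.0664 against 0.460 ± 0.202 (SD, n = 3 each), with every knockdown library above the controls. Control replicate 1 and knockdown replicate 3 had the same count, 14, so library size alone sets them apart. The log2 fold change was 1.5 with a standard error of 0.593 (edgeR adjusted p = 0.36, unadjusted p = 0.040). The 95% confidence interval ran from 107% to 746% of control. With each library left out in turn, the fold change ran from 1.17 to 1.80 on the log2 scale, and the unadjusted p of edgeR was under 0.05 in 1 of the 6 cases, without knockdown replicate 3. With counts gathered at multiples of 4, these values stand for few sequenced fragments.

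CCL20 (chromosome 2, 227805739 to 227817564, plus strand), the CCR6 ligand, had 468, 682 and 453 counts in control and 451, 544 and 425 in knockdown libraries. The groups overlapped, and the log2 fold change was -0.04 (edgeR adjusted p = 0.94), or 0.13 without control replicate 2 and -0.13 without control replicate 1. Its 95% confidence interval of 74.5% to 127% of control leaves room for differences of moderate size in either direction.

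**Figure D3:**
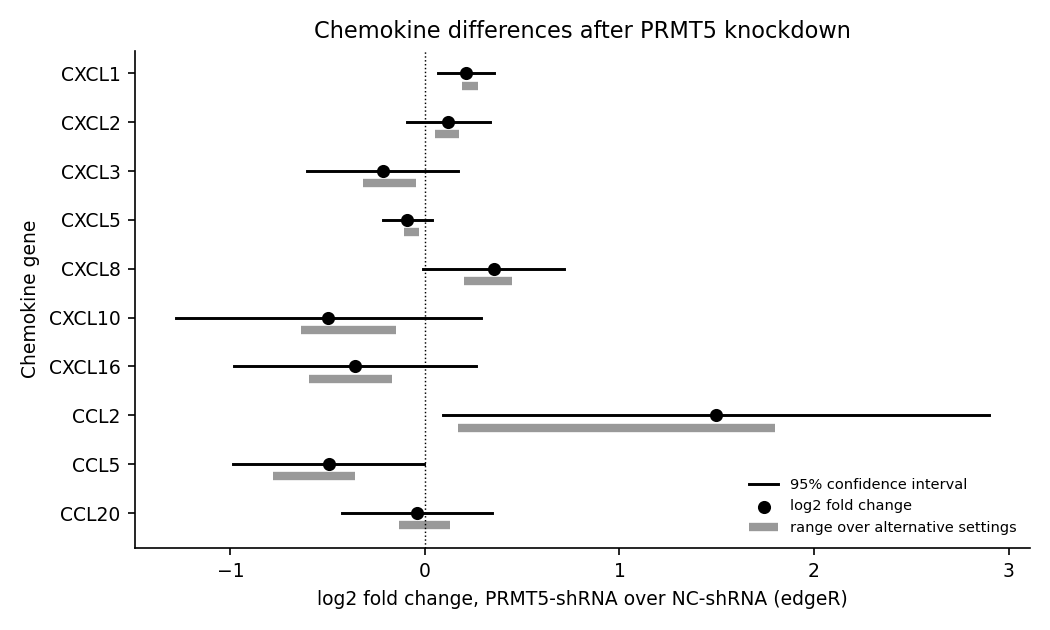
Log2 fold change of each chemokine (point, edgeR) with its 95% confidence interval (black line) and the range over the other settings tried (grey bar). The intervals of CXCL1 and CCL2 lie above 0 and that of CCL5 ends just below it, CXCL5 has the narrowest interval and CCL2 the widest, and the grey bar of CCL20 crosses 0.

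The groups were separated for 4 of the 10 chemokines in CPM (CXCL1 and CCL2 higher, CXCL5 and CCL5 lower), against 21.7% of all tested genes (11.0% higher and 10.7% lower). In FPKM and in CPM of the plain total, 3 were separated, all of them higher (CXCL1, CXCL2 and CCL2). All tested genes leaned the same way on these scales, with 14.7% separated higher and 6.59% lower in FPKM, and 14.6% higher and 7.33% lower on the plain total. CXCL1 and CCL2 therefore kept the separation on the 3 scales, which all scale the same libraries, and the lower side did not. For CCL2, control replicate 1 and knockdown replicate 3 both had 14 counts and were set apart by library size alone. Over the 6 libraries, the genes whose log2 CPM followed that of CXCL1 most closely were GID4 (Pearson r = 0.998), AL109811 (r = 0.994) and GTF2IRD2 (r = 0.992). With 6 points, 72 genes had r over 0.95, and the libraries share depth and scaling, so the likeness is a description.

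Of 36 other chemokines listed, 35 were in the data and 20 of these had 0 counts in every library. The 4 with enough counts to be tested were CCL26, CCL27, CCL28 and CXCL11, and none passed an unadjusted p of 0.05. The highest was CCL26, which attracts eosinophils. It had 0.943 ± 0.211 FPKM in control and 0.833 ± 0.163 in knockdown cells (SD, n = 3 each). On chromosome 4, CXCL1, CXCL2, CXCL3, CXCL5 and CXCL8 share a stretch of 359 kb with CXCL6, PF4V1, PF4 and PPBP. In contrast to the 5 expressed genes, PF4V1, PF4 and PPBP, genes of the platelet type, were listed at 0 FPKM in every library, and CXCL6 had 0, 0 and 0 counts in control and 18, 0 and 23 in knockdown libraries. Neighbours within the cluster thus ranged from 0 to about 100 FPKM.

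Receptors for these chemokines were nearly silent in the same cells. CXCR1, CXCR2, CXCR3, CCR2 and CCR6 had 0 counts in every library, and CCR3 had 4, 4 and 12 in control and 0 in knockdown libraries. CCR1 had 10, 8 and 20 counts against 23, 24 and 16, and CXCR6 had 4, 12 and 5 against 22, 22 and 12 (log2 fold change 1.54, edgeR adjusted p = 0.39). Of the 23 receptors, 7 were tested and 0 passed an unadjusted p of 0.05. The receptors with clear levels bind CXCL12 instead. These were ACKR3, a scavenging receptor, at 6.42 ± 0.966 FPKM in control and 7.42 ± 0.395 in knockdown cells, and CXCR4 at 5.43 ± 0.410 and 5.87 ± 0.272 (SD, n = 3 each).

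Upstream of the chemokines, 1 of the 14 tested genes of IL-1 and TNF signalling passed the adjusted p. IL1R2, a decoy receptor that binds IL-1 without signalling, had 617, 586 and 531 counts in control and 16, 37 and 27 in knockdown libraries (log2 fold change -4.33, edgeR adjusted p = 0.0063). The other genes of this list did not pass the adjusted p. IL1A, which encodes an IL-1 ligand, had 154, 316 and 306 counts against 230, 269 and 218 (log2 fold change 0.01, edgeR adjusted p = 0.99). IL1B had 105, 64 and 87 counts against 115, 73 and 135 (log2 fold change 0.50, edgeR adjusted p = 0.61). IRAK1, a kinase of this pathway, had the highest level of the list, 59.8 ± 3.81 FPKM in control and 57.8 ± 2.44 in knockdown cells. TNF had 8, 8 and 4 counts in control and 0 in each knockdown library.

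Of 23 other NF-κB response genes, 21 were tested and none passed the adjusted p. Their median log2 fold change was 0.15, against 0.01 for all genes, and 17 of the 21 lay on the higher side, against 10385 of all 20295 tested genes. On the other scales and settings that used all 6 libraries, it was between 16 and 20 of 20 to 22 genes. All tested genes also leaned higher on some of these. Their median was 0.057 with total count scaling, where 19 of 21 list genes lay higher. It was 0.039 with limma on log2(FPKM + 1), where 18 of 20 did. At an unadjusted p under 0.05 there were 4 of the 21, all on the higher side, against 6.54% of all genes. Their log2 fold changes were 0.44 for BCL3 (edgeR adjusted p = 0.18), 0.19 for TNFAIP3 (edgeR adjusted p = 0.38), 0.75 for REL (edgeR adjusted p = 0.30) and 0.996 for IL11 (edgeR adjusted p = 0.32). IL11, which encodes a cytokine of the IL-6 family, rested on 30 to 70 counts in control and 77 to 94 in knockdown libraries. TNFAIP3, a feedback inhibitor also known as A20, was at 24.6 ± 2.74 FPKM in control and 29.1 ± 0.991 in knockdown cells, and NFKBIA, which encodes IκBα, at 27.2 ± 0.509 and 28.2 ± 0.718 (log2 fold change -0.01, edgeR adjusted p = 0.97). The gene of this list with the highest level was TNFAIP2, at 33.3 ± 7.81 and 37.3 ± 9.07 FPKM (SD, n = 3 each).

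In the interferon list, 17 of 20 genes were tested and 0 passed the adjusted p. The median log2 fold change was 0.06. IRF1, a transcription factor of interferon signalling, was at 2.05 ± 0.134 FPKM in control and 2.12 ± 0.259 in knockdown cells (edgeR adjusted p = 0.98). ISG15 had the highest level, 31.7 ± 3.65 FPKM against 30.4 ± 2.97. GBP2, a guanylate-binding protein, was past the looser limits (log2 fold change 0.78, edgeR adjusted p = 0.23). Among 13 genes that process or bind chemokines or act on their mRNA, MMP1, a collagenase that also cleaves chemokines, passed the adjusted p with 19, 34 and 12 counts in control and 192, 276 and 244 in knockdown libraries (log2 fold change 3.58, edgeR adjusted p = 0.034). SDC4, a heparan sulphate proteoglycan that can hold chemokines at the cell surface, had the highest level of this list, 55.1 ± 1.3 FPKM in control and 53.2 ± 4.78 in knockdown cells.

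**Figure D4:**
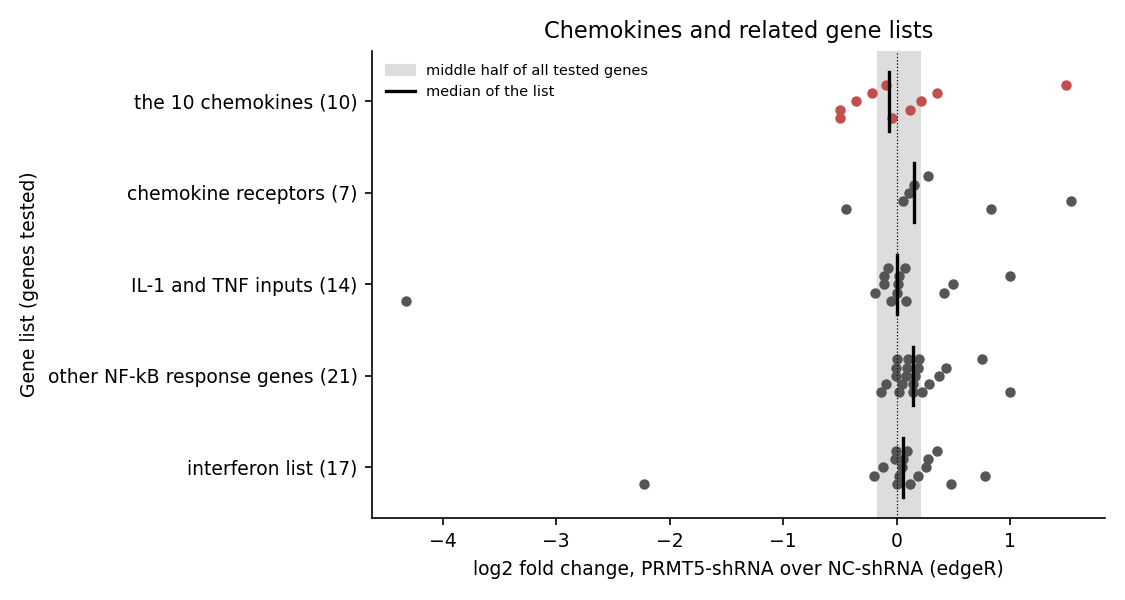
Log2 fold change (edgeR) of each tested gene in the chemokine set and in 4 related lists, with the number tested in brackets, the median of each list (black line) and the middle 50% of all tested genes (grey band). The chemokines spread on both sides of 0 with a median of -0.07, and the points farthest to the left are IL1R2 at -4.33 and CXCL11 at -2.23.

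CCL2, CCL5 and CXCL10 are also made by leukocytes, fibroblasts and endothelial cells, so the markers of these cells are given beside them. Of 16 leukocyte markers, 5 had 0 counts in every library and none passed an unadjusted p of 0.05. Their summed level was 6.32 to 8.25 FPKM in control and 6.36 to 7.91 in knockdown libraries, most of it CD68, and PTPRC, which encodes CD45, had 0 counts in control and 8, 10 and 0 in knockdown libraries. The 10 fibroblast markers summed to 10.5 to 11.7 FPKM and 10.5 to 12.8 FPKM, and COL3A1 was past the looser limits (log2 fold change 0.87, edgeR adjusted p = 0.11). DCN, which made up the most of this sum, lay on the lower side (log2 fold change -0.24, edgeR adjusted p = 0.45). PDGFRB was higher in every knockdown library in CPM (log2 fold change 0.57, edgeR adjusted p = 0.23). Of the 7 that were tested, 5 lay on the higher side. The 10 endothelial markers summed to 15.2 to 16.3 and 14.8 to 15.7 FPKM, of which ESAM made up the most. Of the 7 that were tested, 6 lay on the higher side, against 10385 of all 20295 tested genes. CDH5 was higher in every knockdown library in CPM (log2 fold change 0.30, edgeR adjusted p = 0.38). ESAM was lower in every knockdown library in CPM (log2 fold change -0.23, edgeR adjusted p = 0.29), and the values on the log2 scale were 0.01 for TEK (edgeR adjusted p = 0.99) and 0.04 for ERG (edgeR adjusted p = 0.95). VWF, on that list, passed the adjusted p with 0 counts in each control library and 128, 105 and 122 in the knockdown libraries (edgeR adjusted p = 0.034), and PECAM1 had 30, 5 and 8 against 104, 100 and 109 (edgeR adjusted p = 0.19). All libraries came from cultures of the NCI-H460 line. Whether any such cells were present, or had a part in the CCL2 values, was not tested.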

How the data were processed

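RNA of 3 NC-shRNA and 3 PRMT5-shRNA cultures of NCI-H460 was sequenced. The paper's methods give stranded mRNA libraries and 50-base reads, and the read length was not checked against the reads. Per the submitters' processing notes, reads were trimmed with cutadapt 1.9, mapped with HISAT2 2.0.4 to GRCh38 (the methods write GRCm38, a mouse build) and quantified with StringTie 1.3.4d. For each gene the authors deposited the estimated count in every library, unnormalized and whole, and FPKM values with 2 decimals, scaled for length and depth. How counting treated strand and shared reads is not given in the sources used here.

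Counts were scaled by TMM and filtered with filterByExpr, which kept 20295 of 58825 genes, all 10 chemokines among them. Groups were compared by edgeR's quasi-likelihood test (edgeR 4.0.16, R 4.3.3) with Benjamini-Hochberg adjustment over all tested genes, and single genes also by an exact two-sided permutation test (SciPy 1.17.1). Standard errors and 95% intervals came from the F statistic. The looser limits combined unadjusted p under 0.05 with a fold change over 1.5. The fits were checked on simulated counts. No library was a duplicate of another in its group (chi-square over its degrees of freedom of 43.3 or more). Depth was 53531257 to 70518401 counts per library.

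The members and gene lists were chosen with earlier results of these data known. Beside the members and PRMT5, named genes were list genes past the looser limits without overlap, the highest gene of each list, the members' receptors and a few regulators, some of which are not reported here. IL1B, IL1A, TNF, CXCL6, CXCL9, CXCL11, REL, BCL3 and the marker genes were added after their values were seen. Positions came from GENCODE 29 and promoters from RefSeq (GRCh38.p14), aligned with Biopython 1.88. Alternatives were RLE and total count scaling, no filter, DESeq2 1.42.0, the likelihood ratio test, limma 3.58.1 on log2 FPKM, counts divided by 4, a replicate block and leaving out each library.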

Additional observations from a re-analysis of the deposited data

How the results depend on the processing

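No chemokine with an adjusted p passed 0.05 under any of the 16 alternatives. CCL2 had none in DESeq2 and was not tested where counts were divided by 4 or FPKM was filtered. Where there was a value, the log2 fold changes of all of them but CCL20 kept their sign. CCL20, at -0.04, changed sign to 0.0082 with total count scaling, to 0.025, 0.033 and 0.025 with limma on log2(FPKM + 1), log2(FPKM + 0.1) and log2(FPKM + 1) without a filter, and to 0.13 without NC-shRNA replicate 2, the range on leaving out each library being -0.13 to 0.13. CXCL1 stayed between 0.19 and 0.27 (adjusted p from 0.13 to 0.60), CXCL8 between 0.20 and 0.45, CCL5 between -0.78 and -0.36 and CCL2 between 0.17 and 1.80, the low value coming from the pseudocount of 1 FPKM. The looser limits (unadjusted p under 0.05, fold change over 1.5) were passed by 1 chemokine (CCL2), and by 0 with the 3 limma settings, with counts divided by 4 and with the replicate block. Leaving out each library gave 0 to 1, which was CCL2 without PRMT5-shRNA replicate 3 and CCL5, on the lower side, without PRMT5-shRNA replicate 1.

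The replicate block, where the numbers are all that pairs the libraries (correlations of deviations 0.0012, -0.039 and 0.064), left 0 genes past the adjusted p on the higher side and 0 on the lower, with 2382 at an unadjusted p under 0.05, and PRMT5 at -1.62 (adjusted p = 0.14). Against 10 higher and 4 lower genes in all, DESeq2 called 303 and 227, the likelihood ratio test called 119 and 65, and limma on FPKM without a filter called 1 and 4. Leaving out each library gave 4 to 16 higher and 3 to 10 lower genes. The cause of these changes was not tested. Low counts limit CCL2, CXCL10 and the receptors.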
